A study of Mus musculus with 20 samples.

Results

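Nr4a1, Nr4a2, Nr4a3, Egr1, Egr2 and Egr3 encode 6 transcription factors that T cells transcribe within a short time of T cell receptor (TCR) engagement, and they are 6 of the 25246 genes of the single-cell count tables. They were picked by name, with earlier results of these data known, and their transcripts were followed in 1413 of the 1920 sorted thymic intraepithelial lymphocyte precursors (IELPs), namely the cells with a sort label and at least 2000 transcripts. The IELPs filled 20 libraries and were taken as coming from 3 mice, 1 per genotype. The paper's text speaks of the C-myc mice in the plural, so whether several were pooled is not settled here. All mice carried TBGR, a transgene in which ZsGreen fluorescence reports transcription of Tbx21, the gene of T-bet. The first mouse was otherwise wild type and 4 weeks old ("TBGR"). The second was 2 weeks old and homozygous for floxed Myc alleles without Cre (TBGR C-myc fl/fl). The third, also 2 weeks old, carried the floxed alleles with a Cd4-Cre transgene (TBGR C-myc delta/delta Cd4). Cd4-Cre is active from the CD4+CD8+ thymocyte stage onwards and is not restricted to IELPs. The study's methods describe the sorted cells as CD4-CD8-TCRb+NK1.1- thymocytes, whereas the series description gives NK1.1+, and the description of the methods was followed here.

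Surface CD122 and the reporter divided the cells into 4 populations, which the study arranges as successive stages. Cells without either marker (CD122-T-bet-) form the first stage, cells that had gained CD122 alone (CD122+T-bet-) the second, and those with an intermediate (CD122+T-bet int) or a bright reporter (CD122+T-bet high) the third and the fourth. Only the first 2 were sorted from the C-myc delta/delta Cd4 mouse. In the TBGR and C-myc delta/delta Cd4 mice each library held 1 population, with 2 libraries per population. In the C-myc fl/fl mouse 4 libraries held both T-bet- populations and 4 held both T-bet+ populations. Libraries of 1 mouse are not separate animals, so their spread may be technical and no p-value was computed. Levels are given as CPM, the transcripts of a gene per 1e+06 transcripts of the same cells, without mitochondrial transcripts and spike-ins. CEL-Seq2 counts 1 tag at the 3′ end of each molecule, so levels can be set side by side between genes without a length correction. An interval in brackets is an exact interval at the 95% level that covers counting error only. A difference between populations was called where its log2 ratio was at least 1 in size and the libraries of both groups did not overlap, or, where 2 populations shared libraries, where all 4 libraries moved the same way; genes with under 20 transcripts in both groups together were not judged.

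The sort was visible in the transcripts. Il2rb, which encodes CD122, stood at 7.14, 269, 398 and 515 CPM in the 4 TBGR populations and at 2.61 and 222 CPM in the C-myc delta/delta Cd4 cells. Tbx21 stood at 0, 1.36, 48.0 and 165 CPM in the TBGR populations, and Klrb1c, the gene of NK1.1, at 0, 10.9, 39.5 and 563 CPM. The 4 listed of 5 T cell markers summed to at least 2238 CPM in every library. Between 112 and 186 cells were kept per population, with 699596 to 1468961 transcripts in all. Gm10800, which the study's methods name among the transcripts whose correlated genes were removed, took 7.81% to 25.4% of the transcripts in the TBGR populations, 23.9% to 42.8% in the C-myc fl/fl and 28.1% to 31.0% in the C-myc delta/delta Cd4 populations. Library 4 of the C-myc fl/fl T-bet- cells stood apart, with 53.2% and 49.1% in its CD122- and CD122+ cells and the fewest transcripts of any CD122+T-bet- library (94268). The same well barcodes were used in every library and are told apart by the library index.

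Nr4a1 (Nur77), Nr4a2 (Nurr1) and Nr4a3 (Nor1) are orphan nuclear receptors, and they are immediate targets of calcium and kinase signalling downstream of the TCR. Because Nr4a1 is transcribed in proportion to signal strength, its reporters are widely used to mark thymocytes under strong agonist selection, and Nr4a1 with Nr4a3 is known for its part in clonal deletion. Egr1, Egr2 and Egr3 are zinc finger factors downstream of the ERK branch of the same pathway, and Egr2 and Egr3 are known for their parts in positive selection and in the NKT lineage.

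The genes lie on different chromosomes. On GRCm38, in the GENCODE annotation, Nr4a1 (ENSMUSG00000023034) spans chr15:101254269-101274795 on the plus strand, Nr4a2 (ENSMUSG00000026826) chr2:57106830-57124003 on the minus strand and Nr4a3 (ENSMUSG00000028341) chr4:48045153-48086447 on the plus strand. Egr2 (ENSMUSG00000037868) spans chr10:67535475-67542188 on the plus strand. Promoter sequence was read for the 4 genes that the RefSeq promoter table (GRCm38.p6) lists, and it is shown because these genes have a common response to TCR signals but differed in timing here. CREB and ATF factors, which act downstream of the TCR, bind the cyclic AMP response element (CRE). Its half-site is TGACG. Read on the opposite strand it is CGTCA. The 250 bases before the start of Nr4a1, Nr4a2 and Nr4a3 each held 4 such half-sites, against 45 of 32817 promoters of that length (0.137%) with 4 or more and 17.7% with at least 1. In the stretches below, each 5′ to 3′ on the strand of the gene, capitals mark the half-sites and, in addition, the Egr site GCGNGGGCG (on either strand) in Nr4a1 and Nr4a2 and the CArG box, bound by serum response factor, in Egr2.
Nr4a1, 218 bases, chr15:101266603-101266820, plus strand, with half-sites 233, 213, 69 and 40 bases and an Egr site 60 bases before the start: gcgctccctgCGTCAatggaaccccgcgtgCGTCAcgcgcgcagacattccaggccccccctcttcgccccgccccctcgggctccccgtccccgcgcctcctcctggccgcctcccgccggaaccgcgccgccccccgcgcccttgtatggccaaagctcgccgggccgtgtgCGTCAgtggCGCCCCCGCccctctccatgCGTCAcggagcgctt
Nr4a2, 155 bases, chr2:57124059-57124213, minus strand, with half-sites 200, 144, 123 and 111 bases and an Egr site 74 bases before the start: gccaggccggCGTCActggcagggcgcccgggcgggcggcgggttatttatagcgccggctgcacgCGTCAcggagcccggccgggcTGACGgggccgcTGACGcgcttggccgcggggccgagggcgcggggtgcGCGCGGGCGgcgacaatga
Nr4a3, 51 bases, chr4:48045064-48045114, plus strand, with half-sites 231, 213 and 205 bases before the start: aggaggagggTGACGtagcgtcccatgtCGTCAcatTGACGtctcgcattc
Egr2, 81 bases, chr10:67537748-67537828, plus strand, with half-sites 111 and 55 bases and a CArG box 72 bases before the start: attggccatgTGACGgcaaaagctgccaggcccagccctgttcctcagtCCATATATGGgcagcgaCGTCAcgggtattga
All 4 stretches lie before the first exon of the RefSeq transcript. For Egr2 the table lists 5 starts, and distances are from the first of the 3 whose window holds this stretch; of the other two windows, 1 held another CArG box and no half-site and 1 held none of these motifs. Those of Nr4a1 and Egr2 lie inside the GENCODE gene, which has longer transcripts, and the fourth half-site of Nr4a3, 147 bases before its RefSeq start, lies in a GENCODE exon and is not shown. The Egr site was present in 4.70% and the CArG box in 1.47% of all promoters, and 56 of 32817 (0.171%) held both a CRE half-site and a CArG box. The full element TGACGTCA (1.55% of promoters) and the Nr4a site AAAGGTCA (1.34%) were not in these windows. The motifs are matches of letters, and binding was not measured.

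Egr1 (ENSMUSG00000038418) spans chr18:34859823-34864984 and Egr3 (ENSMUSG00000033730) chr14:70077203-70082614 of the same build, both on the plus strand.

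Along the 4 stages of the TBGR mouse the Nr4a genes fell at different steps. Nr4a1 and Nr4a3 were highest in CD122-T-bet- cells, whereas Nr4a2 was highest one stage later, in CD122+T-bet- cells, and the pooled levels of the 3 genes were at 14.2 CPM or less in CD122+T-bet high cells. The Egr genes were highest in CD122+T-bet- cells by their summed level, although the libraries of Egr1 overlapped between the first 2 stages.

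By pooled level Nr4a1 was the most abundant of the 6 genes in the first 2 TBGR stages but not in the last 2. Its level was 449 and 451 CPM in the CD122-T-bet- libraries, 258 and 399 CPM in the CD122+T-bet- libraries, 97.0 and 133 CPM in the CD122+T-bet int libraries and 19.1 and 4.28 CPM in the fourth stage. The libraries of neighbouring stages did not overlap at any step. The log2 ratio of the first step was -0.47 [-0.66, -0.28] and too small for a call. Nr4a1 then fell 2.83-fold into CD122+T-bet int cells (log2 ratio -1.50 [-1.78, -1.23]) and 7.71-fold into CD122+T-bet high cells (log2 ratio -2.95 [-4.10, -2.09]), where 10 transcripts remained in 147 cells.

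Nr4a2 followed a different course, with a maximum between the first and the last stage. It stood at 55.8 and 94.6 CPM in the CD122-T-bet- libraries, 231 and 365 CPM in the CD122+T-bet- libraries, 192.4 and 157 CPM in the CD122+T-bet int libraries and 10.6 and 8.57 CPM in the fourth stage. It rose 3.87-fold with CD122 (log2 ratio 1.95 [1.60, 2.34]), and its next step of -0.75 [-0.99, -0.51] was not called although the libraries did not overlap (without CD122+T-bet- library 1 it was, at -1.06). The loss at the last step was 16.5-fold (log2 ratio -4.04 [-5.47, -3.07]), so that Nr4a2 passed from above Nr4a1 to a level at which their libraries overlapped.

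Nr4a3 had the largest fall at the first step. It stood at 118 and 115 CPM in the CD122-T-bet- libraries and 52.9 and 53.3 CPM in the CD122+T-bet- libraries, a 2.19-fold fall (log2 ratio -1.13 [-1.57, -0.70]; -0.89 and not called after thinning each cell to 2000 transcripts). In the CD122+T-bet int libraries it stood at 6.06 and 9.49 CPM, a further 6.58-fold fall (log2 ratio -2.72 [-3.89, -1.82]), and in those of the fourth stage at 10.6 and 4.28 CPM. The last 2 stages overlapped and held 16 transcripts together, too few for the comparison.

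Egr1 and Egr2 differed in the steepness of their course. Egr1 stood at 182 and 113 CPM, 150 and 197 CPM, 120 and 68.0 CPM and 42.4 and 42.8 CPM in the libraries of the 4 stages in order. Its libraries overlapped between the first 2 stages (log2 ratio 0.23 [-0.07, 0.54]), its second step of -0.86 [-1.19, -0.55] was below the limit for a call, and it fell 2.19-fold at the last step (log2 ratio -1.13 [-1.78, -0.56]). The second step was called without CD122+T-bet- library 1 (-1.06) or CD122+T-bet int library 1 (-1.33), and the last was not called without the latter (-0.67). After thinning each cell to 2000 transcripts the second step was called (-1.36) and the last was not (-0.76), nor was the last with a pseudocount of 5 (-0.98), so the stage at which Egr1 fell depended on these choices. In CD122+T-bet high cells Egr1 had the highest pooled level of the members, 42.6 CPM.

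Egr2, at a lower level, stood at 39.3 and 8.05 CPM, 56.8 and 83.6 CPM, 24.2 and 25.3 CPM and 2.12 and 0 CPM in the same libraries. It rose 2.91-fold with CD122 (log2 ratio 1.54 [0.90, 2.29]), but the call rested on CD122-T-bet- library 2, without which the value was 0.79. It fell 2.77-fold at the second step (log2 ratio -1.47 [-2.11, -0.90]) and to 1 transcript at the last (log2 ratio -3.56 [-9.47, -1.54]), a call that was lost without either CD122+T-bet int library (-3.62 and -3.55), since too few transcripts then remained. Egr3 had no transcript in any TBGR cell, which allows at most 2.04 to 4.26 CPM per population, and 4 transcripts in all 1413 cells. The counts of members called can be read against all genes: 14.3% of 9262 genes tested were called higher and 3.92% lower at the first step (2 and 1 of 5 members), 3.49% and 6.94% of 9461 at the second (0 and 3 of 5 members), and 7.93% and 11.7% of 8564 at the third (0 and 4 of 4 members).

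Transcripts of other cell types were present in these populations and were unevenly spread. Any transcript of Trdc, Ptcra, Rag1, Rag2, Foxp3, Csf1r or the 4 B cell markers was found in 22.4% of the cells of the first TBGR stage, 39.8% of the second, 29 of 171 cells of the third and 4.76% of the fourth. The 8 CD4+CD8+ thymocyte markers summed to 632 and 761 CPM in the first stage and to at most 210 CPM in later libraries, with Cd4 at 585 CPM and Rag1, Rag2 and Ptcra at 1.02 to 2.04 CPM in the first stage. Rag1 was highest in the fourth stage, at 48.2 CPM. Foxp3 was highest in the second stage, at 58.5 CPM. Without all these cells the calls of the first step remained (log2 ratios 1.85 for Nr4a2, -1.75 for Nr4a3 and 1.63 for Egr2), and at the second step Nr4a3 stood at -2.58 and was no longer called. The 16 listed immediate early genes summed to 2257 and 2629 CPM in the first stage and to 3376 to 4198 CPM in the other 3. The part of these signals in the courses of the members was not tested beyond this.

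**Figure D1:**
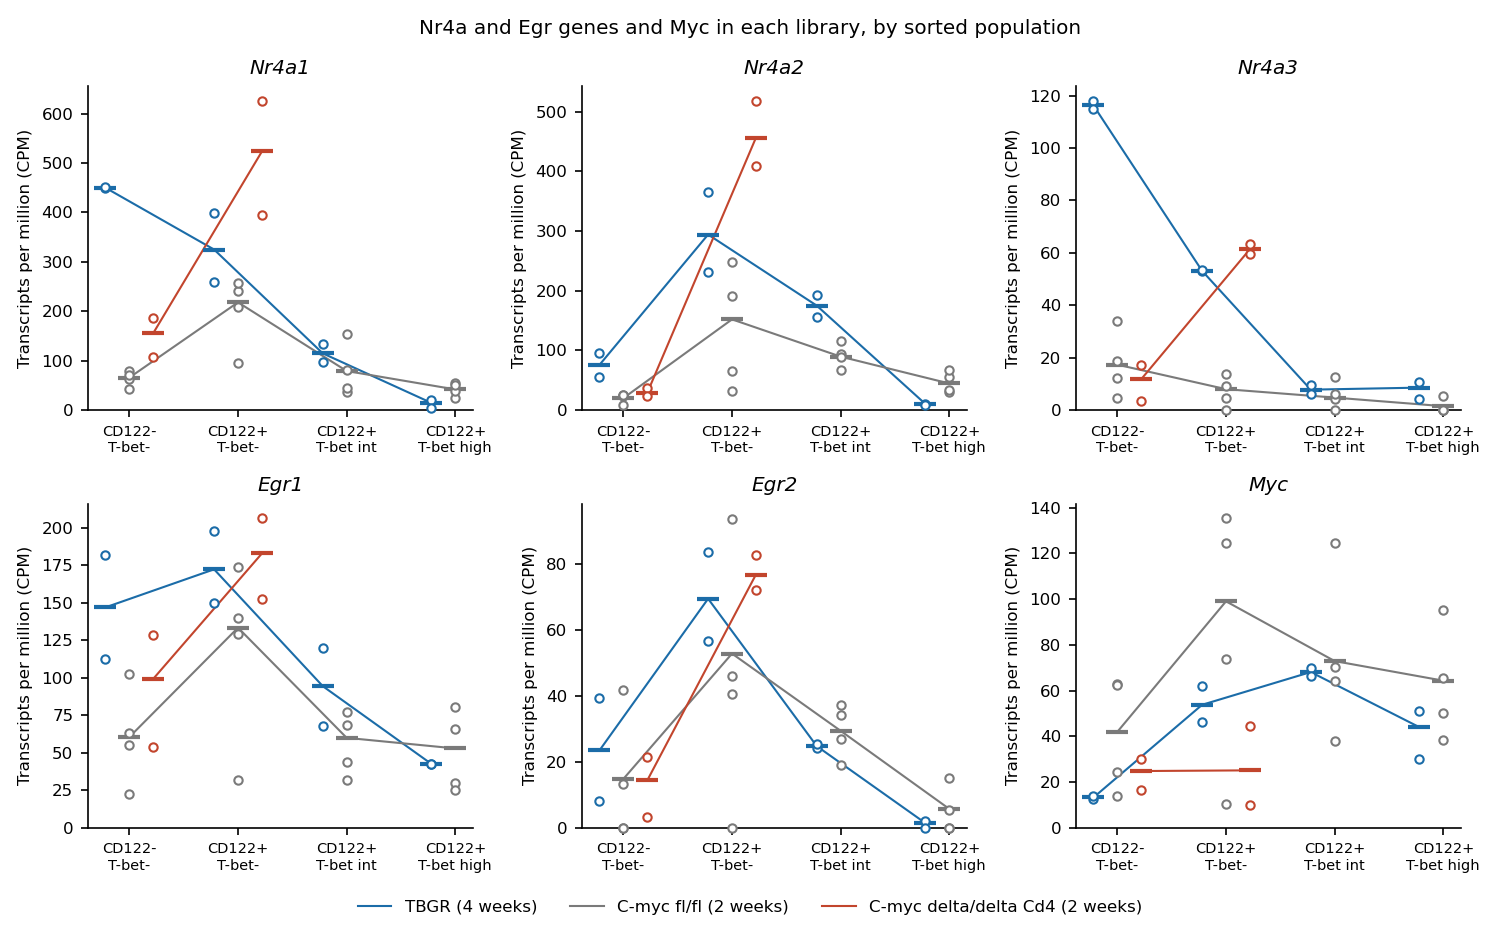
Levels of Nr4a1, Nr4a2, Nr4a3, Egr1, Egr2 and Myc in CPM (vertical axes, linear from 0) in the sorted populations of the TBGR (blue), C-myc fl/fl (grey) and C-myc delta/delta Cd4 (red) mouse, with the libraries of each population as open circles and their pooled level as a bar. Nr4a1 and Nr4a3 were highest in the first TBGR stage and Nr4a2 in the second, and in the C-myc delta/delta Cd4 mouse all 3 Nr4a genes were higher in CD122+T-bet- cells, at 394 and 625, 518 and 408, and 63.5 and 59.7 CPM.

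The members thus succeeded each other while the pooled Nr4a total was similar in the first 2 TBGR stages. The 3 Nr4a genes summed to 642 CPM in CD122-T-bet- cells (622 and 660 CPM in the libraries) and 672 CPM in CD122+T-bet- cells (542 and 817 CPM), then to 297 and 32.6 CPM. Gm10800 took 25.4% and 12.9% of the transcripts of the first 2 stages, so these sums depend on whether it is counted in the total. Nr4a1 made up 70.1% [66.4, 73.7] of the 629 Nr4a transcripts in CD122-T-bet- cells, 48.3% [45.2, 51.5] of 987 in CD122+T-bet- cells and 38.5% [33.6, 43.6] of 384 in CD122+T-bet int cells. Nr4a2 went the other way over these stages, from 11.8% [9.35, 14.5] to 43.8% [40.6, 46.9] and 58.9% [53.7, 63.8]. Nr4a3 declined from 18.1% [15.2, 21.4] to 7.90% [6.30, 9.77] and 2.60% [1.26, 4.74]. The libraries of these 3 stages did not overlap for any of the 3 shares, with Nr4a1 at 72.1% and 68.3%, then 47.6% and 48.9%, then 32.8% and 44.4%. These shares do not depend on the total to which the counts are scaled. CD122+T-bet high cells held 23 Nr4a transcripts, too few to order the genes.

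In the C-myc fl/fl mouse the pooled composition moved from Nr4a1 towards Nr4a2 over the first 3 stages, on fewer transcripts and not in every library. Nr4a1 made up 63.9% of 83 Nr4a transcripts in CD122-T-bet- cells, 57.7% of 286 in CD122+T-bet- cells, 45.6% of 147 in CD122+T-bet int cells and 47.5% of 61 in CD122+T-bet high cells. Nr4a2 made up 19.3%, 40.2%, 51.7% and 50.8% of the same transcripts, and Nr4a3 16.9%, 2.10%, 2.72% and 1.64%. Neighbouring stages of Nr4a1 had overlapping intervals in this mouse. From the first to the second stage the Nr4a1 share rose in library 1 (52% to 73.8%) and library 4 (53.8% to 75%) and fell in the other two, and the Nr4a2 share fell in library 4 (30.8% to 25%).

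**Figure D2:**
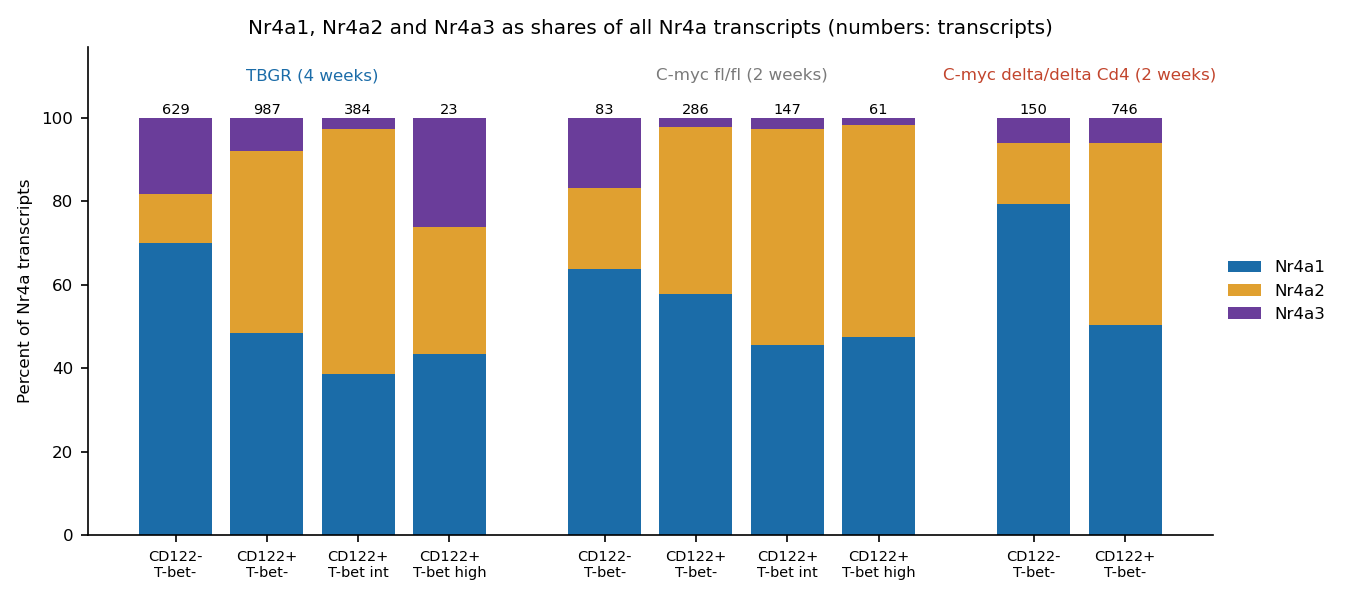
Stacked bars of the percentage of Nr4a transcripts (vertical axis, 0 to 100%) that came from Nr4a1, Nr4a2 and Nr4a3 in each population of each mouse, with the number of Nr4a transcripts written above each bar. In the TBGR mouse the share of Nr4a2 grew from 11.8% to 43.8% and 58.9% over the first 3 stages while the share of Nr4a3 shrank from 18.1% to 7.90% and 2.60%.

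The sort defines only 4 stages, so the 678 TBGR cells were also ordered one by one. A diffusion pseudotime was computed from 416 genes, and the cells were cut into 10 bins of 67 or 68 cells. Left out were the members, and Mki67, Pcna, Malat1 and Xist with the genes correlated with them. The study's methods name these 4 genes against cell cycle and batch variability. No library label was used, but the sort labels were, so the order of the cells is not independent of the sorted stages. The median cell of the 4 populations lay in bins 2, 4, 6 and 9. Nr4a3 peaked at 165 CPM [125.7, 213] in bin 2 and was at 22.9 CPM by bin 4. Nr4a1 peaked in the same bin, at 554 CPM [480, 637], but stayed at 409, 419 and 302 CPM through bins 3, 4 and 5 before it reached 46.5 CPM in bin 7. Nr4a1 thus stayed high through more bins than Nr4a3. With the Gm10800 group left out of the ordering the highest bin was 1 for Nr4a3 and 3 for Nr4a1. Nr4a1 then stood at 450, 412, 470 and 465 CPM in bins 1 to 4, without a decline from bin 2. Between the orderings tried, the highest bin of Nr4a1 ranged from 1 to 4.

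Nr4a2 rose through the bins in which Nr4a3 declined. It was at 43.1 CPM in bin 1, 83.9 CPM in bin 2 and 192.1 CPM in bin 3, peaked at 399 CPM [349, 454] in bin 5 and was at 8.77 CPM in bin 9. Egr1 was broad, at 141 to 211 CPM in bins 1 to 5 with its highest value in bin 4. Egr2 peaked with Nr4a2 in bin 5, at 72.1 CPM [51.7, 97.8], and dropped to 5.81 CPM in bin 7.

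The mean position of the transcripts summarises this order, at bin 2.98 for Nr4a3, 3.48 for Nr4a1, 4.26 for Egr1, 4.59 for Egr2, 4.69 for Nr4a2 and 5.96 for Myc. Across 12 orderings, with other settings or with 1 library left out, Nr4a3 was first and Nr4a1 second of the 5 members in 12, and Myc came after all 5 in 12. Nr4a2 followed Egr1 in 11 and Egr2 in 10, so the order among these 3 was less stable. The orderings share most of their cells and all use the sort labels, so they are not independent of each other. The last bin held 19 CD122-T-bet- cells beside 46 CD122+T-bet high cells and had 25.9% of its transcripts from Gm10800, against 16.8% to 21.7% in bins 1 to 4, where Nr4a3 and Nr4a1 were highest, and 5.56% to 9.76% in bins 5 to 7, and Nr4a1 was higher in it (49.6 CPM) than in bin 9 (14.6 CPM).

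**Figure D3:**
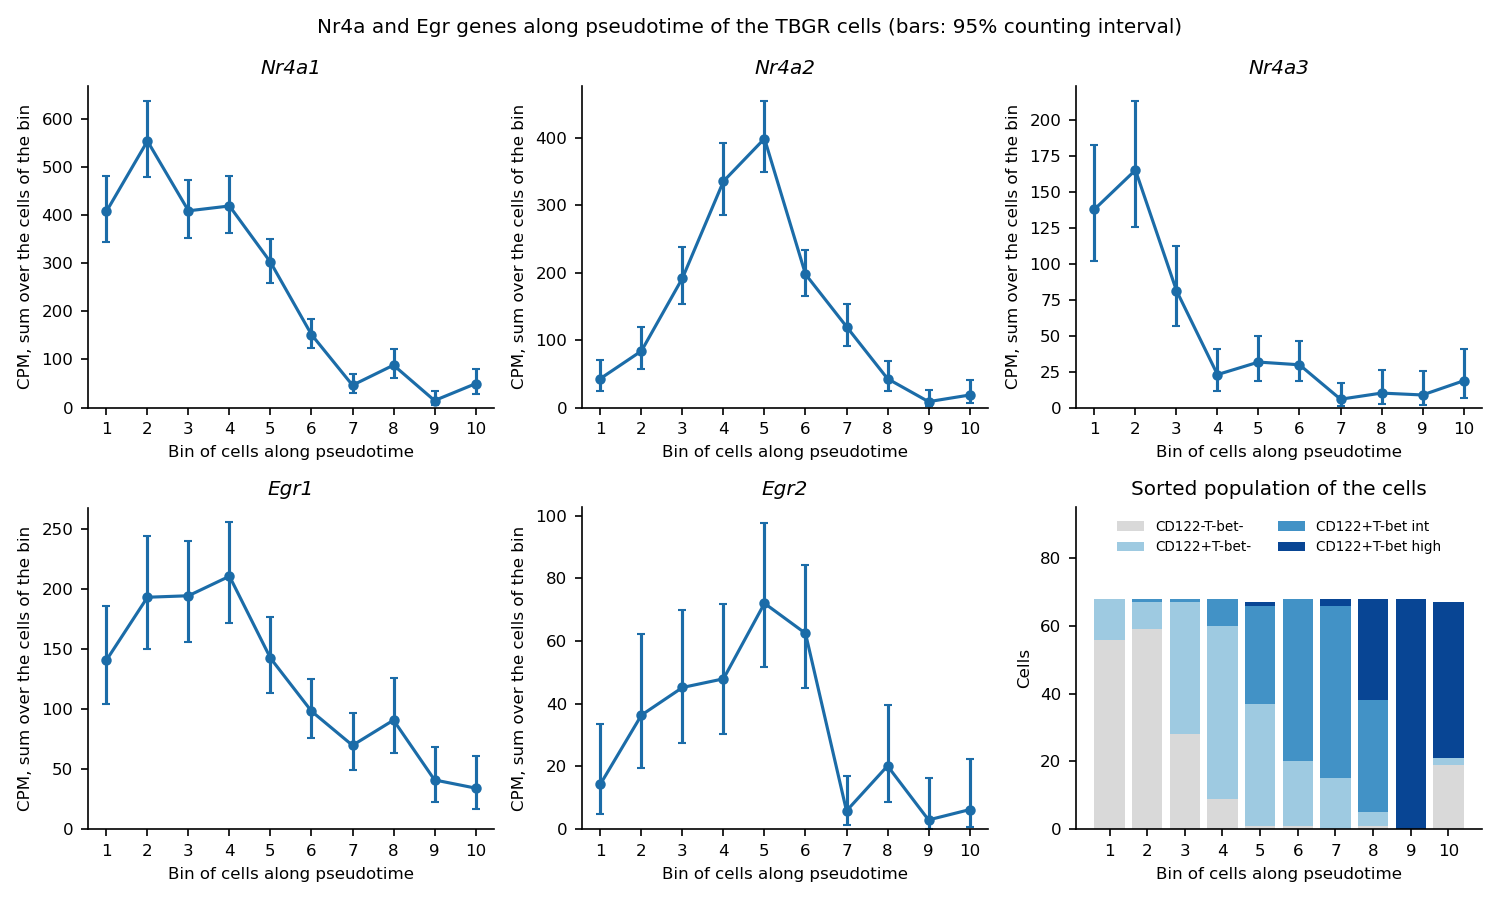
CPM of Nr4a1, Nr4a2, Nr4a3, Egr1 and Egr2 (vertical axes) in 10 bins of TBGR cells ordered by a pseudotime that does not use them (horizontal axes), with 95% counting intervals, and in the last panel the cells of each sorted population per bin. Nr4a3 peaks at 165 CPM in bin 2 and is at 22.9 CPM in bin 4, Nr4a1 peaks at 554 CPM in bin 2, and Nr4a2 and Egr2 peak in bin 5 at 399 and 72.1 CPM.

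The members were also followed by the share of cells with a transcript, while the number of transcripts in such cells was not compared. Each cell was thinned to 2000 transcripts, because depth per cell differed between populations. Nr4a1 was then found in 41.4% [34.0, 49.1] of TBGR CD122-T-bet- cells and 32.8% [26.1, 40.0] of CD122+T-bet- cells, with overlapping intervals, and in 14.0% and 3.40% of the cells of the third and the fourth stage. Without thinning the first 2 shares were 63.8% and 69.4%, in the opposite order, and the CD122+T-bet- cells had the higher median depth (7073.5 against about 5106 to 5130 transcripts). Nr4a2 was found in 10.9%, 30.1% [23.6, 37.2], 25.7% and 0.680% of thinned cells of the 4 stages, so its gain was also seen as more cells with a transcript. Egr1 was found in 14.4%, 25.8%, 13.5% and 8.84%, Nr4a3 in 9.77%, 6.99%, 2.92% and 1.36%, and Egr2 in 3.45%, 7.53%, 2.34% and 0%.

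The transcripts were concentrated in a minority of cells. In TBGR CD122+T-bet- cells the 10 cells with the most transcripts of a gene, of 186, held 30.4% of the Nr4a1 transcripts, 34.0% of Nr4a2, 45.5% of Egr1, 62.7% of Egr2 and 74.4% of Nr4a3. The highest cell had 35 transcripts of Nr4a1 and 18 of Nr4a3. Nr4a3 was detected in only 30 of these cells before thinning, so a share near 74.4% can come from rarity as well as from cells with many transcripts.

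Egr2 was found more often in cells with an Egr1 transcript than in cells without one, on few cells with both. In TBGR CD122-T-bet- cells, Egr2 was found in 5 of 25 cells with an Egr1 transcript (20%) and in 1 of 149 without (0.671%). In TBGR CD122+T-bet- cells the shares were 12.5% [4.73, 25.2] and 5.80% [2.54, 11.1], with overlapping intervals. In C-myc fl/fl CD122+T-bet- cells the shares were 27.8% [9.69, 53.5] and 3.85%, and in C-myc delta/delta Cd4 CD122+T-bet- cells 35.7% [18.6, 55.9] and 11.01%. In the CD122-T-bet- cells of these mice they were 30% [6.67, 65.2] and 0.909%, and 20% [5.73, 43.7] and 1.85%. The intervals of cells with an Egr1 transcript overlapped between all these populations. Nr4a2 was found in 18.1% of TBGR CD122-T-bet- cells with an Nr4a1 transcript and 5.88% without, in 37.7% and 26.4% of CD122+T-bet- cells, and in 45.8% and 22.4% of CD122+T-bet int cells. The intervals overlapped within each of these pairs. In 52.7% of the TBGR CD122+T-bet- cells at least 1 Nr4a gene was found, and 28.0% had transcripts of at least 2 of the 6 genes. Barcodes without a cell set the background for these shares: 1920 such barcodes, 96 per library, held 9 transcripts of Nr4a1, 15 of Nr4a2, 2 of Nr4a3, 6 of Egr1 and 6 of Egr2, each in a barcode of its own, with a median depth of 17.5 transcripts.

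**Figure D4:**
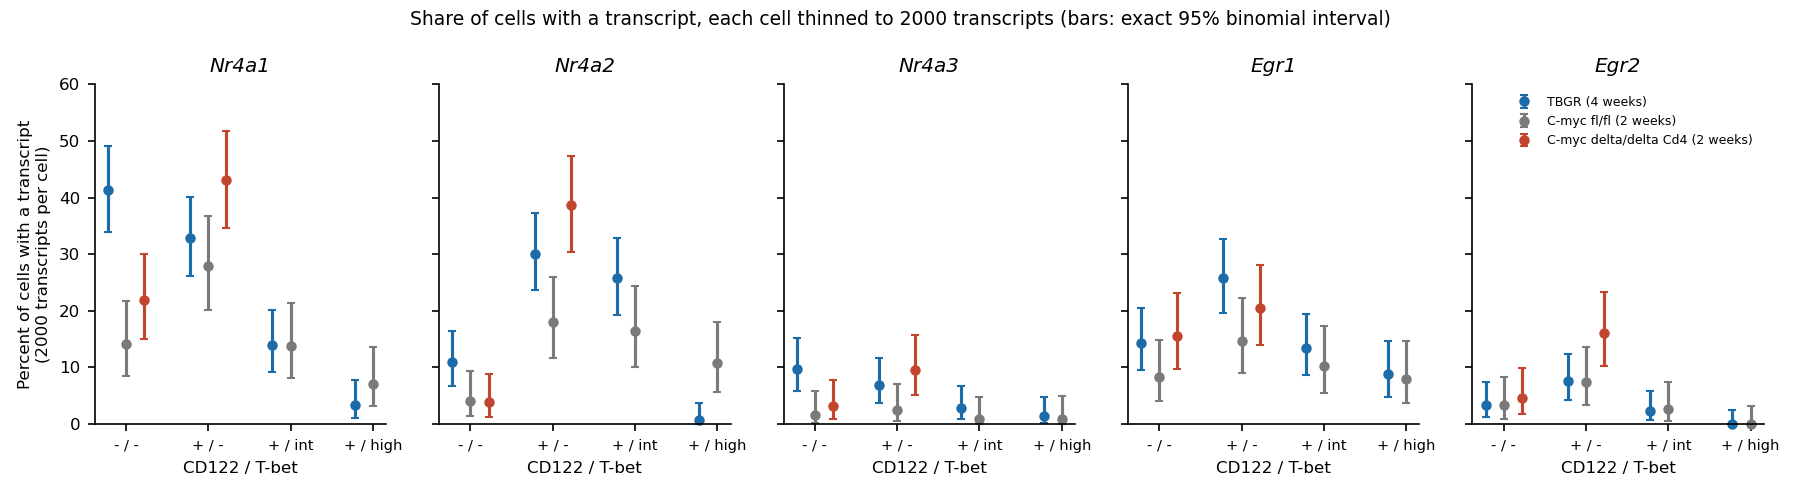
Percentage of cells with at least 1 transcript of Nr4a1, Nr4a2, Nr4a3, Egr1 and Egr2 (vertical axes) after thinning each cell to 2000 transcripts, per population of the TBGR, C-myc fl/fl and C-myc delta/delta Cd4 mouse, with exact 95% binomial intervals. Nr4a2 was found in 10.9% and 30.1% of the first 2 TBGR stages and in 3.91% and 38.7% of those of the C-myc delta/delta Cd4 mouse.

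In the C-myc fl/fl mouse cells of the first and second stage shared their libraries, so each library gave its own ratio. Nr4a1 stood at 63.0, 79.1, 71.2 and 42.7 CPM in CD122- cells and at 207, 240, 257 and 95.5 CPM in CD122+ cells of libraries 1 to 4. It rose in all 4 libraries, 3.31-fold in the pool (log2 ratio 1.73 [1.28, 2.21]), a sign opposite to the TBGR mouse, from which this mouse also differed in age and libraries. Nr4a2 stood at 24.2, 23.3, 8.90 and 24.4 CPM and at 64.5, 191, 248 and 31.8 CPM, and it rose 7.49-fold (log2 ratio 2.90 [2.18, 3.80]), although library 4 held only 3 transcripts in CD122+ and 4 in CD122- cells. These were 2 of 5 members called higher, where 11.6% of 6790 genes were called higher and 2.22% lower. The median gene of this comparison had a log2 ratio of 0.55, and relative to it the Nr4a1 step was smaller by that amount.

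The other members did not pass in all 4 libraries. Egr1 stood at 63.0, 102, 22.2 and 54.9 CPM and at 129, 174, 140 and 31.8 CPM, a log2 ratio of 1.13 [0.63, 1.66] that was negative in library 4. Egr2 was at 0, 41.9, 13.3 and 0 CPM and at 46.1, 93.5, 40.6 and 0 CPM, higher in the 3 libraries in which it was seen (log2 ratio 1.79 [0.87, 2.90]). Nr4a3 was at 33.9, 18.6, 4.45 and 12.2 CPM and at 9.22, 4.45, 13.5 and 0 CPM, a log2 ratio of -1.06 [-2.79, 0.34] on 20 transcripts. Without library 4, the one rich in Gm10800, Egr1 (1.24) and Egr2 (1.66) were also called.

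In the later stages of this mouse the members decreased less evenly. The pooled levels of CD122+T-bet int cells were 78.8 CPM for Nr4a1, 89.4 CPM for Nr4a2, 4.70 CPM for Nr4a3, 59.96 CPM for Egr1 and 29.4 CPM for Egr2, with log2 ratios to CD122+T-bet- cells of -1.46 [-1.90, -1.05] for Nr4a1, -0.76 for Nr4a2, -1.15 for Egr1 and -0.83 for Egr2. None of the 4 members tested was called, library 4 of the CD122+T-bet- cells lay within the range of the later stage for Nr4a1 and Egr1 and below it for Nr4a2 and Egr2, and 0.562% and 0.506% of 7119 genes were called higher and lower. Without that library Nr4a1 (-1.57), Egr1 (-1.29) and Egr2 (-1.03) were called. Nr4a1 (-2.10) was also called when CD122+T-bet int library 1 was left out. At the last step Egr2 fell 4.66-fold, from 29.4 to 5.72 CPM and in all 4 libraries (log2 ratio -2.22 [-4.35, -0.83]), the only call among 4 members where 4.72% of 6908 genes were called lower. Without library 1 its log2 ratio was -3.24, and it was not called because too few transcripts remained. Nr4a2 fell short of the limit at -0.998 [-1.66, -0.39] with all 4 libraries lower, whereas Nr4a1 (-0.91) was lower in 3 of 4 and Egr1 stood at -0.18. Both Nr4a2 (-1.15) and Nr4a1 (-1.11) were called without library 4, and Nr4a2 also without library 2 (-1.32).

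The C-myc delta/delta Cd4 mouse was compared with the C-myc fl/fl mouse of the same age. Myc, the targeted gene, stood at 16.7 and 30.01 CPM in the CD122-T-bet- and 44.5 and 9.96 CPM in the CD122+T-bet- libraries of the deleted mouse, against 63.0, 14.0, 62.3 and 24.4 CPM and 73.8, 125, 135 and 10.6 CPM in the floxed mouse. The pooled level was 3.86-fold lower in CD122+T-bet- cells (log2 ratio -1.95 [-2.81, -1.22]), and the libraries overlapped because of library 4 of the floxed mouse. Myc transcripts thus remained in the deleted cells, 37 in all. Whether the counted 3′ tag lies inside the deleted part is not given in the sources used here, so these counts check the deletion only in part.

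In CD122+T-bet- cells all 3 Nr4a genes were higher in the C-myc delta/delta Cd4 mouse, with the largest ratio for Nr4a3, the scarcest of them. Nr4a1 stood at 394 and 625 CPM in its libraries against 207, 240, 257 and 95.5 CPM in the floxed mouse, a 2.40-fold difference (log2 ratio 1.26 [0.997, 1.54]). Nr4a2 stood at 518 and 408 CPM against 64.5, 191, 248 and 31.8 CPM, a 2.997-fold difference (log2 ratio 1.58 [1.28, 1.91]). Nr4a3 stood at 63.5 and 59.7 CPM against 9.22, 4.45, 13.5 and 0 CPM, a 7.24-fold difference on 44 and 6 transcripts (log2 ratio 2.86 [1.72, 4.48]). No library of the floxed mouse reached a library of the deleted mouse for any of the 3 genes. The pooled levels of Nr4a1, Nr4a2 and Nr4a3 were 523, 456 and 61.4 CPM in the deleted and 218, 152 and 7.92 CPM in the floxed mouse. The TBGR mouse, with Myc intact but with another age and other libraries, stood at 325, 294 and 53.1 CPM. The Nr4a3 level of the deleted cells was thus near that of the TBGR cells. The call of Nr4a1 depended on library 2 of the deleted mouse (0.86 without it), while those of Nr4a2 (1.28 to 2.33) and Nr4a3 (2.24 to 3.25) held in all 16 alternative settings.

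The Egr genes of these cells had smaller ratios. Egr1 stood at 152 and 207 CPM against 129, 174, 140 and 31.8 CPM (log2 ratio 0.45 [0.07, 0.84]), and Egr2 at 82.6 and 72.2 CPM against 46.1, 93.5, 40.6 and 0 CPM (log2 ratio 0.53 [-0.07, 1.16]), and for both the libraries overlapped. The interval of Egr1 ended below and that of Egr2 reached into the interval of Nr4a1, and Egr2 was called when library 2 of the floxed mouse was left out (1.08) and after thinning to 2000 transcripts (1.02). Together 3 of 5 members were called higher and 0 lower, where 13.5% of 7312 genes were called higher and 6.13% lower, with a median log2 ratio of 0.06 over well-counted genes.

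Before CD122 fewer members were called. In CD122-T-bet- cells Nr4a1 stood at 107 and 186 CPM in the deleted mouse against 63.0, 79.1, 71.2 and 42.7 CPM (2.36-fold, log2 ratio 1.24 [0.77, 1.74]) and was the only one of 5 members called, where 12.9% of 6893 genes were called higher and 1% lower. The median gene had a log2 ratio of 0.45 here, and relative to it Nr4a1 stood at 0.79. Egr1 was called (1.09) without library 1 of the deleted mouse. The call of Nr4a1 was lost without library 2 of the deleted mouse (0.72) and with the Gm10800 group of genes left out of the totals (0.88). Nr4a2 was at 36.8 and 23.6 CPM against 24.2, 23.3, 8.90 and 24.4 CPM (log2 ratio 0.53 [-0.45, 1.57]), Nr4a3 at 3.35 and 17.1 CPM against 33.9, 18.6, 4.45 and 12.2 CPM (-0.53 [-1.94, 0.75]), Egr1 at 53.5 and 129 CPM (0.71 [0.18, 1.26]) and Egr2 at 3.35 and 21.4 CPM (-0.04 [-1.37, 1.26]), and the libraries of these 4 genes overlapped. The 8 CD4+CD8+ thymocyte markers summed to 575 and 474 CPM in these libraries of the deleted mouse against 223 to 338 CPM, with Arpp21 at 247 against 91.3 CPM and Ptcra at 77.1 against 34.6 CPM. Cd4 alone was lower, at 41.8 against 96.3 CPM. Rag1 (26.1 against 24.7 CPM) and Rag2 (10.5 against 8.64 CPM) hardly differed. Without cells holding transcripts of other types Nr4a1 stood at 1.30 and was called.

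Within the deleted mouse the step from the first to the second stage was therefore steep for 4 members. Nr4a1 rose 3.36-fold (log2 ratio 1.75 [1.45, 2.06]), Nr4a2 15.5-fold (3.96 [3.37, 4.68]), Nr4a3 5.004-fold (2.32 [1.33, 3.60]) and Egr2 5.16-fold (2.37 [1.47, 3.50]), while Egr1 stood at 0.88 [0.46, 1.31] with libraries apart. Egr1 was called without CD122+T-bet- library 1 (1.06) or CD122-T-bet- library 2 (1.73). Over all 7425 genes tested, 13.4% were called higher and 7.84% lower, with a median log2 ratio of 0.05. Myc stood at 24.8 and 25.1 CPM on the 2 sides of this step (log2 ratio 0.02 [-0.997, 1.03]). The step exceeded that of the floxed mouse by a log2 value of 3.38 for Nr4a3 and 1.05 for Nr4a2, by 0.57 for Egr2 and 0.02 for Nr4a1, with a difference of -0.26 for Egr1. Over 18 alternative settings the difference ranged from -0.27 to 2.16 for Egr2, from -0.39 to 0.54 for Nr4a1 and from -0.68 to 0.60 for Egr1, so its sign was not fixed for these 3 genes, and without cells holding transcripts of other types it was -0.17 for Egr2. The difference between the steps was not tested, since each mouse is 1 animal. Side by side, the step of Nr4a3 was -1.13 in the TBGR, -1.06 in the floxed and 2.32 in the deleted mouse, and that of Nr4a1 -0.47, 1.73 and 1.75.

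**Figure D5:**
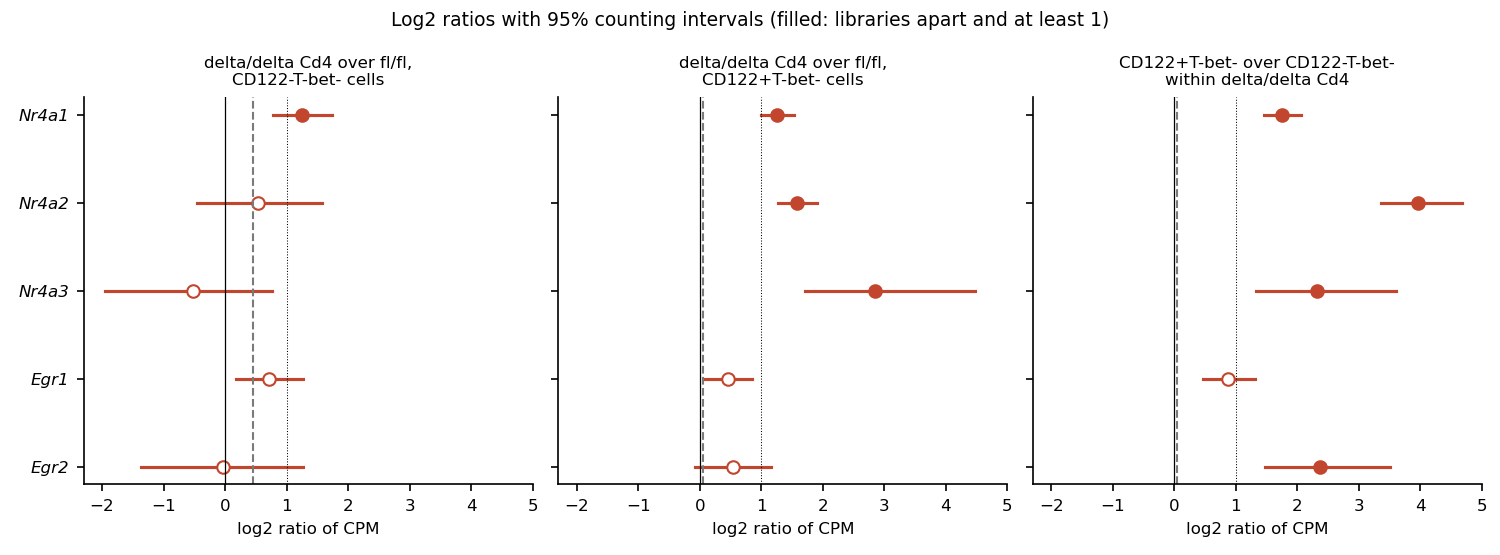
log2 ratios of the 5 members Nr4a1, Nr4a2, Nr4a3, Egr1 and Egr2, with exact 95% intervals, for C-myc delta/delta Cd4 over C-myc fl/fl in CD122-T-bet- cells, the same in CD122+T-bet- cells, and the second over the first stage within the C-myc delta/delta Cd4 mouse. Filled points have a ratio of at least 1 in size and libraries that do not overlap. The dotted line marks 1 and the dashed line the median gene. In CD122+T-bet- cells Nr4a1, Nr4a2 and Nr4a3 stand at 1.26, 1.58 and 2.86.

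A larger share of the CD122+T-bet- cells of the deleted mouse held a transcript of at least 1 Nr4a gene. After thinning to 2000 transcripts, Nr4a1 was found in 43.1% [34.6, 51.8] of CD122+T-bet- cells of the deleted mouse against 27.9% in the floxed mouse, Nr4a2 in 38.7% [30.5, 47.4] against 18.03%, Nr4a3 in 9.49% against 2.46%, Egr2 in 16.1% against 7.38% and Egr1 in 20.4% against 14.8%. The intervals of the floxed mouse were [20.1, 36.7] for Nr4a1, [11.7, 26.0] for Nr4a2 and [0.510, 7.02] for Nr4a3. For Nr4a1, Nr4a3, Egr1 and Egr2 the intervals of the 2 mice overlapped, and for Nr4a2 they did not. Intervals of shares cover the sampling of cells within 1 mouse each, so they do not test a difference between the mice. At least 1 Nr4a gene was found in 65.0% [56.4, 72.9] of CD122+T-bet- cells of the deleted mouse against 38.5% [29.9, 47.8] in the floxed mouse, and at least 2 of the 6 genes in 43.8% against 17.2%. The 7 highest of 137 cells held 29.3% of the Nr4a1 and 32.1% of the Nr4a2 transcripts but 75% of the Nr4a3 transcripts. The Nr4a composition of these cells, 50.3% Nr4a1, 43.8% Nr4a2 and 5.90% Nr4a3 of 746 transcripts, averaged 2 unlike libraries, with 40.4% and 57.2% Nr4a1 and 53.1% and 37.4% Nr4a2 in libraries 1 and 2.

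Other signals moved with these results. The 16 listed of 17 immediate early genes, among them genes that cell dissociation can induce, summed to 3122 and 3771 CPM in the CD122+T-bet- libraries of the deleted mouse against 796 to 2337 CPM in the floxed mouse, and to 1987 and 2619 CPM against 884 to 2080 CPM in CD122-T-bet- cells. In CD122+T-bet- cells 8 of the 14 tested were called higher and 0 lower (median log2 ratio 1.51, against 0.18 over all genes tested), among them Fos (2.15), Jun (2.21), Btg1 (2.78) and Klf6 (2.42). Of all genes 13.5% were called higher and 6.13% lower in this comparison. From the first to the second stage of the deleted mouse, 11 of 14 tested immediate early genes were called higher and 1 lower (median 1.59, against 0.13). There 13.4% of all genes were called higher and 7.84% lower. In the floxed mouse 4 of 12 were called higher and 0 lower at this step, where 11.6% and 2.22% of all genes were (median 0.63, against 0.48). Whether sample handling has a part in the Nr4a differences was not tested. Gm10800 took 28.1% and 26.8% of the transcripts in the CD122+T-bet- cells of the deleted and the floxed mouse, and 31.0% and 42.8% in the CD122-T-bet- cells.

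Markers of other cell types also differed between these mice. The 4 listed of 5 gamma delta T cell markers summed to 1036 and 1093 CPM in the deleted CD122+T-bet- libraries against 189 to 696 CPM in the floxed mouse, with Trdc at 212 and 9.24 CPM. All 4 B cell markers were seen in library 2 of the deleted CD122+T-bet- cells, at 194 CPM, and the list stood at 12.7 CPM in library 1 and 0 to 18.4 CPM in the floxed mouse. The 8 CD4+CD8+ thymocyte markers summed to 129 and 140 CPM against 10.6 to 64.5 CPM, with 5 of the 8 higher in the deleted cells, among them Cd8a (69.8 against 10.6 CPM) and Arpp21 (29.3 against 5.28 CPM), and with Ptcra and Rag2 at 0 in the deleted cells. The 5 listed of 6 myeloid markers were at 219 and 396 CPM against 158 to 227 CPM with Cd74 at 62.8 against 0 CPM, Fcer1g at 187 against 141 CPM, Cst3 at 68.4 against 52.8 CPM and Itgax and Csf1r at 0 in both mice, and the 3 regulatory T cell markers at 54.0 and 79.7 CPM against 0 to 85.7 CPM.

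The comparison was repeated without the cells that held any transcript of Trdc, Ptcra, Rag1, Rag2, Foxp3, Csf1r or a B cell marker, which were 27.0% of the deleted and 15.6% of the floxed CD122+T-bet- cells and 52.3% and 35.0% of the CD122-T-bet- cells. Between the mice in CD122+T-bet- cells the log2 ratios were then 1.45 for Nr4a1, 1.82 for Nr4a2 and 2.59 for Nr4a3, and all 3 were still called. For the step within the deleted mouse Nr4a1 (1.37) and Nr4a2 (3.39) were still called, whereas Nr4a3 (1.20) and Egr2 (0.95) were not.

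The rest of the TCR response gave a context for the members. A list of 32 further genes that respond to TCR signals or to agonist selection, of which 31 are in the tables, was followed through the same comparisons. In the TBGR mouse it split at the first step, with 8 of 27 tested genes called higher and 5 lower and a median log2 ratio of 0.16, against 0.26 over all genes tested. Of all genes 14.3% were called higher and 3.92% lower at this step. The genes of agonist-selected cells were among those that rose, Ikzf2 (Helios) from 342 to 1344 CPM, Pdcd1 (PD-1) from 65.3 to 249 CPM, Id3 from 124 to 468 CPM and the costimulatory receptor Tnfrsf9 from 58.1 to 153 CPM. Cd5, an inhibitory receptor set by TCR signal strength, fell from 329 to 121 CPM, and Itm2a from 1098 to 123 CPM. The list therefore contained genes that moved with Nr4a2 and Egr2 as well as genes that moved with Nr4a3.

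At the second TBGR step 2 of 27 genes of the list were called higher and 7 lower, where 3.49% and 6.94% of all genes were (median -0.43, against -0.02). At the third, 3 of 23 were called higher and 6 lower, where 7.93% and 11.7% of all genes were (median -0.12, against -0.09). Ikzf2 (-3.51), Id3 (-5.21), Pdcd1 (-3.58) and Tox (-1.99), a factor of agonist-selected and chronically stimulated T cells, fell at the last step together with Nr4a1, Nr4a2, Egr1 and Egr2. Immediate early genes did not share this loss: 5 of 15 were called higher and 1 lower at the last step (median 0.31), with Klf6 at 1.14, Btg1 at 1.04 and Fos at -1.37.

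In the C-myc delta/delta Cd4 mouse 14 of 26 tested TCR-response genes were called higher and 0 lower from the first to the second stage (median 1.17, against 0.13 over all genes). Of all genes 13.4% were called higher and 7.84% lower there. In the floxed mouse 7 of 24 were called higher and 1 lower, where 11.6% and 2.22% of all genes were (median 0.93, against 0.48). Tnfrsf9 rose from 18.3 to 407 CPM and Tnfrsf18 (GITR) from 11.8 to 123 CPM in the deleted mouse. Against the floxed mouse, 7 of 24 genes were called higher in CD122+T-bet- cells and 0 lower, where 13.5% and 6.13% of all genes were (median 0.81, against 0.18). The 7 were Tnfrsf9 (2.80), Dusp5 (2.29), a phosphatase that acts on ERK, Tnfrsf18 (1.93), Cd69 (1.90), Cd200 (1.87), Tox (1.37) and Slamf6 (1.30). Id3 (-0.34), Pdcd1 (0.75) and Ikzf2 (0.95) were not called. In CD122-T-bet- cells 5 of 22 were called higher and 0 lower, where 12.9% and 1% of all genes were, with a median of 0.49 against 0.45 over all genes.

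Levels of the TBGR mouse and of the C-myc fl/fl mouse are given side by side only, because age, genotype and libraries differed together and their parts cannot be told apart. In CD122-T-bet- cells the pooled levels were 450 and 65.4 CPM for Nr4a1, 75.5 and 19.8 CPM for Nr4a2, 116 and 17.3 CPM for Nr4a3, 147 and 60.5 CPM for Egr1 and 23.5 and 14.8 CPM for Egr2, and the first 4 genes were called higher in the TBGR mouse, where 29% of all genes were called higher and 2.94% lower. In CD122+T-bet- cells Nr4a3 alone was called, at 53.1 and 7.92 CPM, where 21.1% of genes were called higher and 2.09% lower. In CD122+T-bet int cells no member was called (16.6% of genes higher, 2.16% lower). In CD122+T-bet high cells the order was the reverse, with Nr4a1 at 14.2 and 41.5 CPM and Nr4a2 at 9.93 and 44.3 CPM, both called lower in the TBGR mouse, where 21.6% of genes were called higher and 4.09% lower. Of the immediate early genes tested, 9 of 14, 9 of 14, 8 of 15 and 9 of 14 were called higher in the TBGR mouse in the 4 populations in order, and 0 lower.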

How the data were processed

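Single cells were sorted into 384-well plates and sequenced by CEL-Seq2. The submitters' processing notes name bcl2fastq 2.17.1.14. Per the paper's methods, the authors aligned with BWA 0.6.2-r126 to GENCODE VM9 transcripts of the mouse, kept reads that map once on the sense strand, merged isoforms of a gene, and turned UMIs of 6 bases into transcript numbers by a collision correction, so the deposited values are estimated counts of transcripts and not whole. Here they were rounded (a change of at most 0.0945% per library). mt- and ERCC- rows were left out, and cells with a sort label and at least 2000 transcripts were kept. Transcripts were summed per population and library and given as CPM, with exact Poisson and binomial intervals, and log2 ratios with a pseudocount of 0.5 transcripts. With 1 mouse per genotype no count model was fitted and no p-value was computed.

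The members and the gene lists were chosen with earlier results of these data known. Genes were named by rule: the members, Myc, called genes of the 2 lists (TCR-response and immediate early genes), and per member the 3 genes with the highest Pearson correlation of log2(CPM + 10) among genes with at least 200 transcripts. Other genes of the lists were picked after their values were seen. Pseudotime used scanpy 1.11.5 (20 principal components, 15 neighbours). The Gm10800 group is 16 genes that correlate above 0.65 with the transcripts that the study's methods name for this purpose; leaving it out, and leaving out cells with transcripts of other cell types, were added after seeing the data. Doublets were not called. Shares come from cells thinned to 2000 transcripts. Python 3.11.15, numpy 2.4.6, pandas 2.3.3, scipy 1.17.1 and matplotlib 3.10.9 were used, and the comparison was tested on simulated data. Gene positions and promoter sequences are from GENCODE and RefSeq on GRCm38; Egr1 and Egr3 sequences and protein sequences were not used here.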

Additional observations from a re-analysis of the deposited data

Results flagged for a closer look

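In 25 groups of 4 libraries, 1 library stood apart from the other 3 in 2. A rate of about 1 group in 20 by chance does not hold for counts as small as these, so the 2 are only described. Nr4a2 was at 8.90 CPM (2 transcripts) in library 3 of the C-myc fl/fl CD122-T-bet- cells, against 23.3 to 24.4 CPM (4 or 5 transcripts) in the other libraries. Nr4a3 was at 5.50 CPM (1 transcript) in library 3 of the C-myc fl/fl CD122+T-bet high cells and at 0 in the others.

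The step from the first stage (CD122-T-bet-) to the second (CD122+T-bet-) differed in sign between mice for Nr4a1, at -0.47 in the TBGR mouse against 1.73 in the C-myc fl/fl and 1.75 in the C-myc delta/delta Cd4 mouse, and for Nr4a3, at -1.13 in the TBGR against 2.32 in the C-myc delta/delta Cd4 mouse. These differences were not tested, and age, genotype and libraries cannot be told apart in those against the TBGR mouse.

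Barcodes without a cell held transcripts of the members: 9 of Nr4a1 (0.452% of the number in all sorted cells), 15 of Nr4a2 (1.06%), 6 of Egr1 (0.562%) and 6 of Egr2 (1.88%). All genes together gave 51080 transcripts in 1920 such barcodes, 0.538% of those in cells.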

How the results depend on the processing

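No paired analysis was possible because the results come from no test. The C-myc fl/fl libraries that hold 2 populations pair these, and the report uses their ratios within each library; the other libraries share only a number. Of 714 recomputed log2 values of single members, 691 moved by less than the spread between libraries, 23 by more, and none that had been called changed sign. The cause of the changes below was not tested.

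Counts of members called changed as follows. After thinning to 2000 transcripts, 2 instead of 4 members were called at the last TBGR step, 1 instead of 2 at the first and 0 instead of 1 at the last step of the C-myc fl/fl mouse. With the Gm10800 group left out of the totals, or of the totals and the minimum, 1 instead of 0 was called at the second step of the C-myc fl/fl mouse (1 and 1) and 0 instead of 1 between the C-myc mice in CD122-T-bet- cells (0 and 0), where scaling to the median gene and a minimum of 3000 transcripts also gave 0. At the last C-myc fl/fl step, the mean over cells and the minimum of 3000 transcripts gave 2. Without cells that held transcripts of other types, this step gave 3, the step of the C-myc delta/delta Cd4 mouse 2 instead of 4, and the excess of that step over the floxed mouse 1 instead of 2.

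Leaving out 1 library at a time gave 3 to 5 calls at the second TBGR step (5 without CD122+T-bet- library 1), 2 to 4 at the third (2 without CD122+T-bet int library 1), 2 to 4, 0 to 3 and 0 to 3 at the 3 C-myc fl/fl steps, 0 to 2 between the C-myc mice in CD122-T-bet- cells (0 without library 2 and 2 without library 1 of the deleted mouse), and 1 to 2 members with a step larger in the deleted mouse (1 without its CD122+T-bet- library 1 or without library 1 or 4 of the floxed mouse). At the last C-myc fl/fl step the count was 0 without library 1, 2 without library 2 and 3 without library 4, and at the second it was 1 without CD122+T-bet int library 1.

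With a minimum of 1 transcript in place of 20, the share of all genes called was 6.62% instead of 13.8% at the first and 4.24% instead of 6.96% at the last C-myc fl/fl step. Without thinning, the gain from the first to the second stage in the share of TBGR cells with a transcript was 5.56 percentage points for Nr4a1 (-8.58 with thinning), 36.4 for Nr4a2 (19.2) and 11.3 for Egr2 (4.08).

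Depth limits what can be said of Egr3 (4 transcripts), of Nr4a3 in T-bet+ cells and of Egr2 in CD122+T-bet high cells. The limit of 2% Kcnq1ot1 in the study's methods removed no cell.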

Other observations

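Over 28 library and population units, the genes whose log2(CPM + 10) was most like that of a member, among 5870 genes, were Il6st, a cytokine receptor subunit (Pearson r = 0.855), Tox (0.842) and Prkca (0.835) for Nr4a1. For Nr4a2 they were Ikzf2 (0.895), Trerf1 (0.844) and Tsc22d1 (0.833), for Nr4a3 Gm44164 (0.798), Ifngr2 (0.795) and Kdm6b (0.788), for Egr1 Il6st (0.803), Dnmt3a (0.798) and Nr4a1 (0.784), and for Egr2 Eno3 (0.842), Igf2r (0.830) and Pdcd1 (0.799). Among the members, Nr4a1 was closer to Egr1 (0.784) than to Nr4a2 (0.709) or Nr4a3 (0.702), Nr4a2 was closer to Egr2 (0.733) than to Nr4a3 (0.414), and Egr1 and Egr2 stood at 0.771. The units share mice, libraries and depth, so these values describe the 28 units and were not tested.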
